A study of Homo sapiens with 6 samples.

Results

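The fibroblast growth factor (FGF) genes described here are 5 FGF family members (FGF1, FGF2, FGF5, FGF12 and FGF13) and the 4 receptor tyrosine kinases FGFR1 to FGFR4, measured in parental MDA-MB-231 cells and in the isolates S1a and S1b. The 9 genes were chosen by symbol from results of these same arrays, with FGF13 picked for its signal in S1b, and every probe set annotated to a single one of these symbols was taken. That gave 30 probe sets for 9 genes, of 19064 probe sets for 11963 named genes in all. Because the signals of these arrays served to choose the genes, their values are given as a description, without tests, and no p-value is given for any of the 9. Tests are given only for other genes of the pathway.

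MDA-MB-231 is an established line of human breast cancer cells, triple-negative and mesenchymal in character. The labels give S1a and S1b as isolated seeder cell populations of this line, each isolated on its own. Seeder cells are cells that re-enter a tumour from the blood. All 3 populations were cultured subconfluent in DMEM with serum and no treatment is named, and total RNA of each was hybridised to 2 Affymetrix arrays, 6 in all. Titles number the paired arrays as biological replicates, and no label says whether they came from separate cultures, so errors and p-values describe the spread between these arrays, which may be technical, and no isolated population other than seeder cells was measured.

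FGFs are a family of signalling proteins with a shared core fold. Most, such as FGF5, are secreted through a signal peptide, whereas FGF1 and FGF2 lack one and leave the cell by another route. Secreted FGFs bind a receptor together with heparan sulfate chains, the receptors phosphorylate each other and the adaptor FRS2, and the RAS and ERK cascade follows, with Sprouty, SPRED and DUSP proteins acting as feedback brakes and ETS factors such as ETV4 and ETV5 as induced targets. FGF12 and FGF13 belong to the fibroblast growth factor homologous factors, which stay inside the cell, are best known as partners of voltage-gated sodium channels in neurons and heart, and are not classed as ligands that activate the receptors. FGF13 has also been described as a microtubule-binding protein.

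The deposited values are MAS5 signals on a linear scale, in arbitrary units, and each array had the same trimmed mean of 500.2 units and a median between 86.6 and 106 units. Detection calls were not used here, so 44 units, the 40th percentile of the mean signals of all probe sets, served as the level under which a signal is called dim. Of the 30 probe sets, 12 had a mean over the 6 arrays at or above 44 units and 18 lay under it. The brightest probe set of FGF1, FGF5, FGF13, FGFR1 and FGFR2 passed, and that of FGF12, FGF2, FGFR3 and FGFR4 did not. Log2 differences are on the scale log2(signal + 3.942) and understate the change of dim probe sets. Where the dimmer side lay under 44 units, the brighter mean was divided by 44 and the ratio written as "at least N-fold". Levels are compared only within a probe set. The line markers VIM (18400 to 27200 units) and CD44 (6810 to 8340 units) were bright on all 6 arrays, the epithelial cadherin CDH1 reached at most 30 units, PGR 19 units and ESR1 82.1 units, and ERBB2 lay between 147 and 258 units. Of 7 markers of blood, vessel, liver and red cells, the highest signal was 103 units (CD14, parental replicate 2).

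The windows before the annotated starts of FGF13 and FGF5 are shown here because FGF13 was the gene picked for its S1b signal and FGF5 was higher in both isolates by all of its probe sets. RefSeq (build GRCh38.p14) gives 2 starts for each gene, and the arrays do not tell which start was in use. Each line gives the 250 bases before a start, read towards the gene, and capitals mark matches to the motifs searched. FGF13 lies on the minus strand of chromosome X, with windows chrX:139205024-139205273 (start 1) and chrX:138739354-138739603 (start 2). FGF5 lies on the plus strand of chromosome 4, with windows chr4:80266338-80266587 (start 1) and chr4:80268018-80268267 (start 2).
FGF13 start 1: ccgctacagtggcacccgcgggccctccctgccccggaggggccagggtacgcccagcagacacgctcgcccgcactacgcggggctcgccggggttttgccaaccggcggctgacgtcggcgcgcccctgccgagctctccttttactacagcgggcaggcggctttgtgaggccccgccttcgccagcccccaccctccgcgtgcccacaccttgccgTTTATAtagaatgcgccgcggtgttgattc
FGF13 start 2: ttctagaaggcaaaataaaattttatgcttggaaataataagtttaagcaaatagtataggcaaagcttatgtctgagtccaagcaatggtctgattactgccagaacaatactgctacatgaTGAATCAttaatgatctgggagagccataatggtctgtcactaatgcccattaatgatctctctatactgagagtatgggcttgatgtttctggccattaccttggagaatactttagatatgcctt
FGF5 start 1: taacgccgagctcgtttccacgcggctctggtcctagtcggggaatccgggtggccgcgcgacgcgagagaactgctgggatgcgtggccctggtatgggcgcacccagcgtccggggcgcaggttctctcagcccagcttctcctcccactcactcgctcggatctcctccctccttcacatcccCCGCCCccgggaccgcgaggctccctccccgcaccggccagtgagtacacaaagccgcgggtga
FGF5 start 2: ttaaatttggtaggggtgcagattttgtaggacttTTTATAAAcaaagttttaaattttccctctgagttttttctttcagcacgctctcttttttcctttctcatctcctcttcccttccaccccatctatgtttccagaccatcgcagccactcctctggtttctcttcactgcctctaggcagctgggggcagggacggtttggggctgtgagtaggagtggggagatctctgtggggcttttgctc
Both genes paired a start rich in CpG with one poor in it. The window of FGF13 start 1 had a GC content of 70.4% and 29 CpG dinucleotides, and that of start 2 had 36.4% and 0. For FGF5 the values were 68.8% and 27 at start 1 and 47.2% and 3 at start 2. The median of all 35116 windows in the RefSeq table was 58% GC and 11 CpG. Of the 5 motifs searched on both strands, the TATA box (TATAAA) occurs in 10.7% of all windows, the CCAAT box (CCAAT) in 32%, the GC box (GGGCGG) in 42.6%, the AP-1 element (TGANTCA) in 6.57% and the E-box (CACGTG) in 6.34%. FGF13 start 1 held 1 TATA box match, in reverse orientation, whose first base lies 30 bases before the start, and start 2 held 1 AP-1 match beginning 127 bases before it. FGF5 start 1 held 1 GC box match in reverse orientation, and start 2 held 2 overlapping TATA box matches, one in each orientation. These matches describe letters only and show no binding.

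FGF13, the homologous factor of the group with a sodium channel and microtubule link, was bright in S1b and dim in the other populations. Its single probe set (205110_s_at) gave 35 and 1.49 units in parental, 19.2 and 2.79 in S1a and 814 and 910 in S1b. All 4 parental and S1a signals were under 44 units, and both S1b signals lay far above them, with no overlap. The means were 18.2 ± 23.7 units in parental, 11 ± 11.6 in S1a and 862 ± 68.1 in S1b (SD, n = 2 each). In order, S1b was highest, and parental and S1a did not differ beyond their spread. S1b was at least 19.6-fold above S1a and, against the same floor, at least 19.6-fold above parental. On the log2 scale the difference of S1b and S1a was 6.11 ± 0.89 (SE), a value whose S1a side lies under 44 units, so the bound describes it better. Differences of S1a and S1b from parental were -0.22 and 5.89, and these share the parental arrays. The mean of both isolates against parental was 2.84, a value that joins 1 dim and 1 bright population, and it became 4.26 without parental replicate 1 and 1.42 without parental replicate 2. The probe set has a suffix for probes shared between transcripts, and no other probe set of FGF13 was named, so the signal could not be checked against a further one.

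FGF12, the other homologous factor among the 9 genes, was dim everywhere. Its brighter probe set (207501_s_at) gave 30.4 and 23.8 units on the parental arrays, 4.51 and 8.18 in S1a and 21.5 and 4.29 in S1b. Parental signals were above all isolate signals, but all 6 lay under 44 units, so no fold is given. Its other probe set stayed between 2.01 and 8.88 units.

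**Figure D1:**
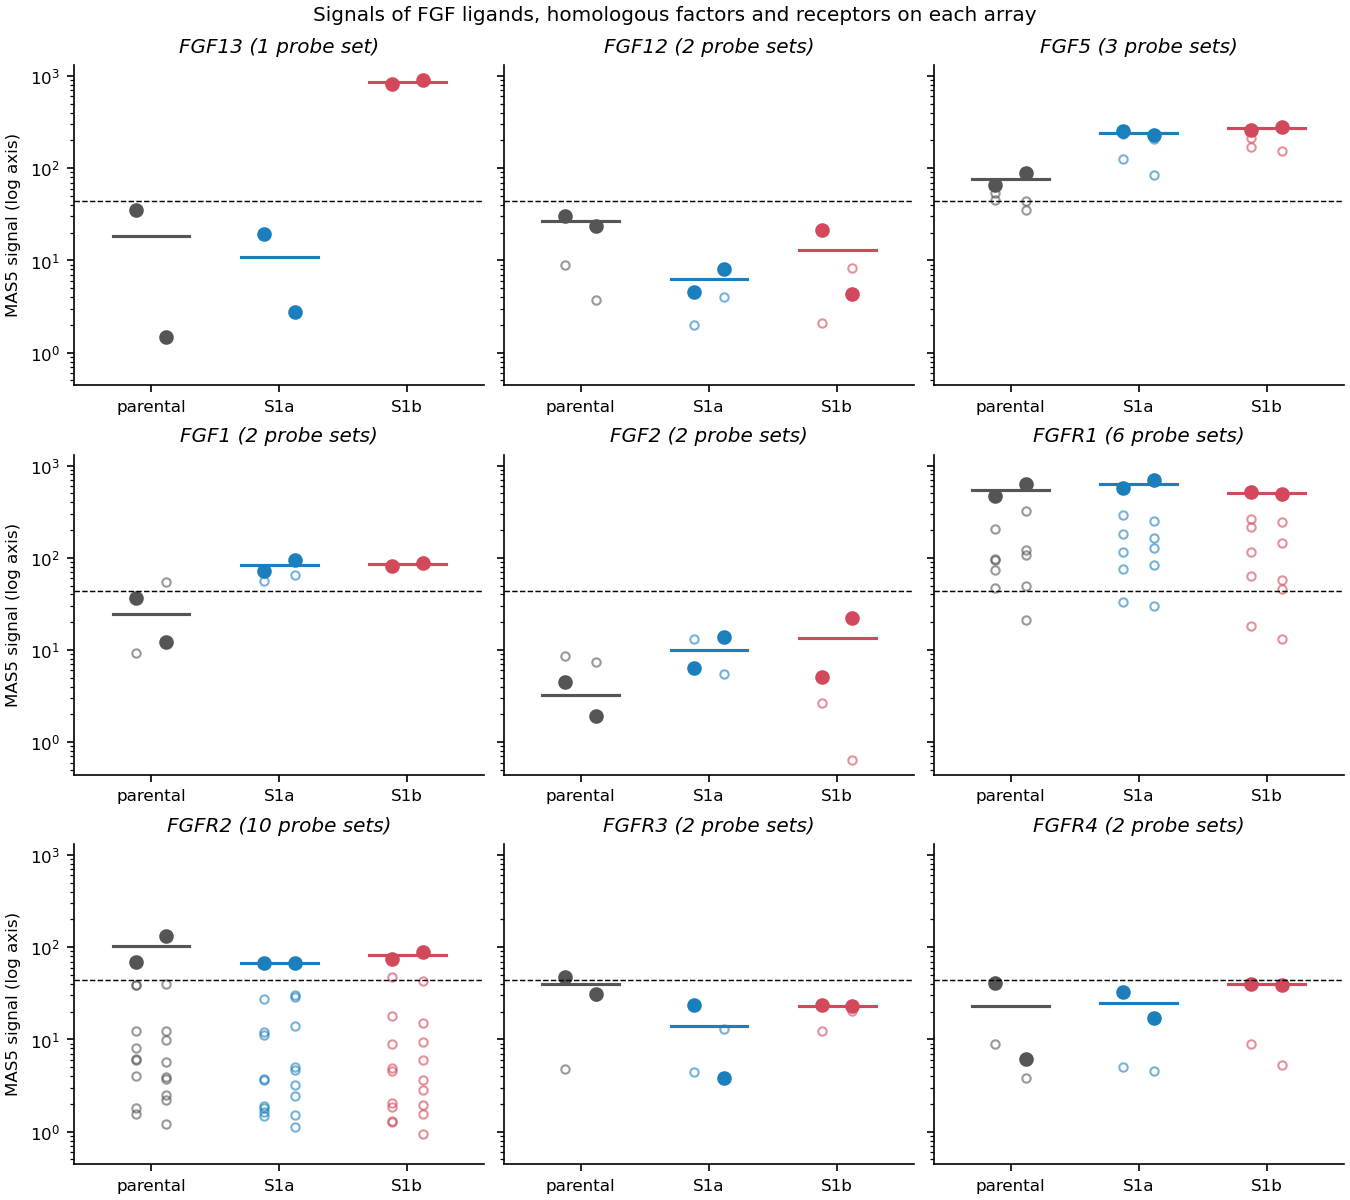
MAS5 signal (log axis, arbitrary units) on each of the 6 arrays for the 9 genes; filled points are the brightest probe set of a gene with its population mean as a line, open points are its other probe sets, and the dashed line is 44 units. FGF13 is above the line only in S1b (814 and 910 units), FGF5 is higher in both isolates than in parental, and FGFR1 is at a like level in all 3 populations.

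FGF5, a secreted ligand known as a brake on hair growth, was higher in both isolates than in parental by all 3 of its probe sets. Probe set 210310_s_at gave 66.4 and 88.2 units on the parental arrays, 256 and 227 in S1a and 262 and 280 in S1b. Every isolate signal was above both parental signals. Probe set 208378_x_at gave 45.5 and 43.6 units in parental, 233 and 207 in S1a and 213 and 284 in S1b, again with no overlap. Probe set 210311_at, the one without a shared-probe suffix, gave 53.7 and 35.1, then 127 and 85.2, then 170 and 153 units. Here too, the isolates lay above parental, and both S1b arrays were above both S1a arrays.

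The size of the FGF5 difference depended on the probe set. The mean of both isolates exceeded parental by 1.69 ± 0.19 (log2, SE) with 210310_s_at, 2.29 ± 0.21 with 208378_x_at and 1.5 ± 0.3 with 210311_at. Means went from 77.3 ± 15.4 to 241 ± 20.6 in S1a and 271 ± 12.6 units in S1b (SD, n = 2 each) for the first of these. S1b and S1a differed by 0.17 ± 0.21 and 0.16 ± 0.25 in the 2 brighter probe sets, within the error, and by 0.62 ± 0.35 in 210311_at. By their means the order was S1b, S1a, parental in all 3 probe sets, with S1a and S1b overlapping in the 208378_x_at signals. The 3 probe sets read the same arrays, so they are not separate evidence for ranking S1b above S1a.

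FGF1, which can bind all 4 receptors, was also higher in the isolates, at signals near the dim range. Probe set 205117_at gave 36.8 and 12.1 units in parental, 72.6 and 95.2 in S1a and 80.8 and 88.5 in S1b. Its isolate signals were all above 44 units and its parental signals all under it, which makes the isolates at least 1.92-fold higher. Probe set 208240_s_at gave 9.37 and 55 units in parental, 55.3 and 64.8 in S1a and 82.8 and 92.9 in S1b. Parental replicate 2 and S1a replicate 1 nearly met there, and the isolates were at least 1.68-fold higher. On the log2 scale the differences of both isolates from parental were 1.78 ± 0.45 and 1.45 ± 0.57 (SE). The first became 2.45 without parental replicate 1 and 1.11 without parental replicate 2. S1a and S1b did not differ beyond their spread in 205117_at (0.02 ± 0.52). In 208240_s_at both S1b arrays lay above both S1a arrays, with means of 87.8 ± 7.15 and 60.1 ± 6.7 units (SD, n = 2 each) and a log2 difference of 0.52 ± 0.66 (SE).

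FGF2, the prototype FGF that is made without a signal peptide, was dim in all populations. Its 2 probe sets spanned 0.639 to 22.2 units, and they disagreed in direction, with log2 differences of both isolates from parental of 1.03 ± 0.58 and -0.5 ± 0.48 (SE). No fold is given for either, since all signals lay under 44 units.

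FGFR1 was the receptor with the clearest signal, and in its 2 brightest probe sets the isolates did not differ from parental beyond the spread. Probe set 211535_s_at gave 462 and 626 units in parental, 576 and 691 in S1a and 510 and 486 in S1b. Both isolates overlapped with parental, while both S1b arrays lay under both S1a arrays (log2 difference -0.34 ± 0.15, SE). Probe set 210973_s_at gave 206 and 321, then 289 and 248, then 266 and 243 units. The differences of both isolates from parental were 0.06 ± 0.13 and 0.02 ± 0.19 (log2, SE), and the first ranged from -0.16 to 0.28 as each array was left out, so its sign is not fixed. Of the other 4 probe sets, 207937_x_at was higher in the isolates by 0.68 ± 0.22, with 94.8 and 121 units in parental against 179, 165, 213 and 145, and the remaining 3 lay between -0.44 and 0.11. The probe sets of FGFR1 thus disagreed with each other, and 207937_x_at carries a suffix for probes that can match other sequences. Between the isolates, 5 of 6 FGFR1 probe sets were lower in S1b, by up to 0.88 on the log2 scale in the dim 207822_at, while 207937_x_at differed by 0.03.

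FGFR2 had 10 probe sets, and 9 of them were dim. Only 208229_at was above 44 units, with 69.4 and 134 in parental, 67 and 67.5 in S1a and 75.1 and 87.9 in S1b. The lower parental array lay among the isolate arrays, and the difference of both isolates from parental (-0.37 ± 0.34) became 0.09 without parental replicate 2. The other 9 probe sets of FGFR2 stayed under 44 units in their mean over the 6 arrays, with 47.8 units as the highest single signal (211398_at, S1b replicate 1). FGFR3 spanned 3.85 to 47.8 units over 2 probe sets and FGFR4 3.8 to 40.6 units. For FGFR3 204379_s_at both parental arrays (47.8 and 31.3) were above all isolate arrays (3.85 to 23.9). For FGFR4 204579_at the parental arrays differed from each other (40.6 and 6.1) as much as from the isolates.

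Over all 30 probe sets, 6 were higher in the mean of both isolates by at least 1 on the log2(signal + 3.942) scale, with no overlap between arrays, and 3 were lower by the same rule. The rule takes dim signals as measured, without the floor of 44 units. With the floor, only the 3 FGF5 probe sets among these 9 are at least 2-fold apart. The 6 are the probe sets of FGF5 and FGF1 and 1 dim probe set of FGF2 (204421_s_at), and the 3 are dim probe sets of FGF12, FGFR2 and FGFR3. Among all 19064 named probe sets, 3.03% were higher and 7.72% lower by that rule. Nothing is read from these counts, since the genes were chosen on these signals. The median log2 difference of the 30 probe sets was -0.02, beside -0.1 for all named probe sets. Between S1b and S1a, 1 probe set was higher (FGF13, background 3.25%) and 2 dim ones were lower (204422_s_at of FGF2 and 208225_at of FGFR2, background 3.55%). The 3 lower probe sets dropped out with median centring and with quantile normalization, each leaving 6 higher and 0 lower. With a pseudocount of 16 units the lower ones dropped out of both counts, which left 5 higher against parental and FGF13 alone between the isolates.

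**Figure D2:**
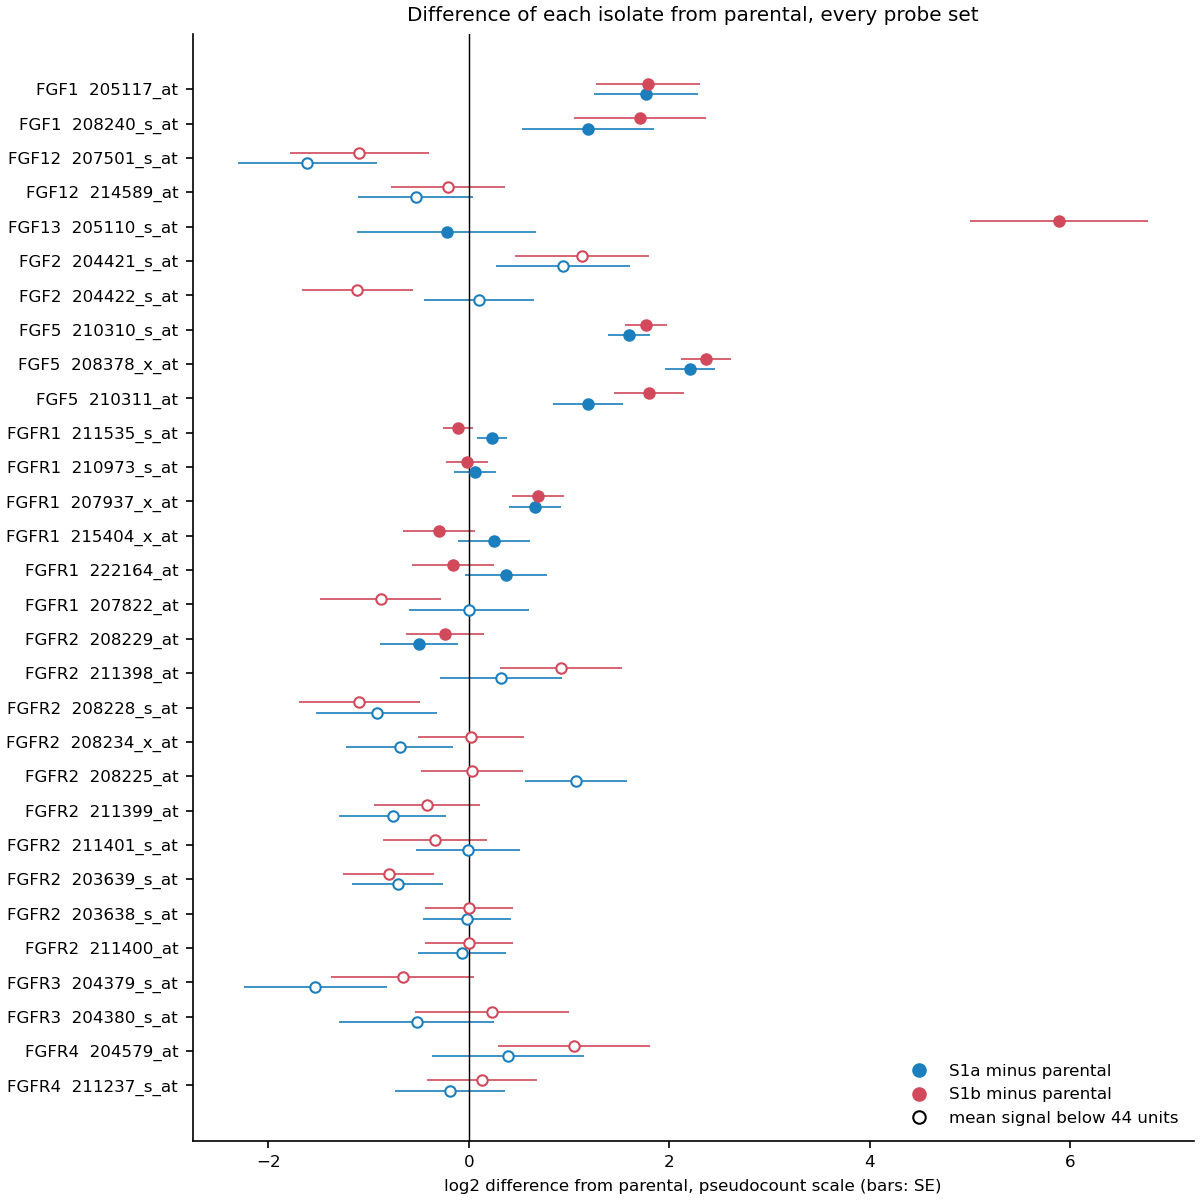
Log2 difference of S1a (blue) and S1b (red) from parental for each of the 30 probe sets, with bars for the SE; open points have a mean signal under 44 units. Both series share the parental arrays. FGF13 differs in S1b alone (5.89), and the FGF5 and FGF1 probe sets lie between 1.19 and 2.37 in both isolates. Receptor probe sets lie on both sides of 0, from -1.53 (FGFR3 204379_s_at, S1a) to 1.07 (FGFR2 208225_at, S1a), both dim.

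Genes near FGF13 in signal pattern were searched by the Euclidean distance of log2 signals over the 6 arrays. Each gene was centred on its parental mean, with dim signals included as measured. The nearest 5 of the tested genes were ENG (endoglin, a TGF-beta coreceptor, distance 3.77), SPARC (a matricellular protein, 4.57), POLM (a DNA polymerase, 5.75), TNS1 (tensin, a focal adhesion protein, 5.78) and LYPD1 (5.81). ENG gave 17.5 and 18.1 units in parental, 41.8 and 52.6 in S1a and 551 and 462 in S1b, so both S1a arrays already lay above parental, unlike those of FGF13. SPARC gave 37.1 and 39.6, then 35 and 39, then 394 and 367 units, so S1a stayed at the parental level as it did for FGF13. POLM, TNS1 and LYPD1 were, like ENG, higher in S1a than in parental, at means of 110, 106 and 70.1 units beside 244, 149 and 190 in S1b. Pearson's correlation over the 6 arrays gave 5 other genes, led by SEC23A (r = 0.99), whose means were 1810 units in parental, 1730 in S1a and 2310 in S1b. SEC23A, with these small changes, lay at a distance of 8.13, so distances of 5.75 to 5.81 mark only a partial likeness. The r with FGF13 was 0.894 for ENG, 0.936 for SPARC, 0.809 for POLM, 0.624 for TNS1 and 0.828 for LYPD1. TNS1 ranked 940 by r, and its S1b and S1a differed by 0.47 ± 0.61 (log2, SE). The 6 arrays come in 3 pairs, so these likeness values are descriptions.

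**Figure D3:**
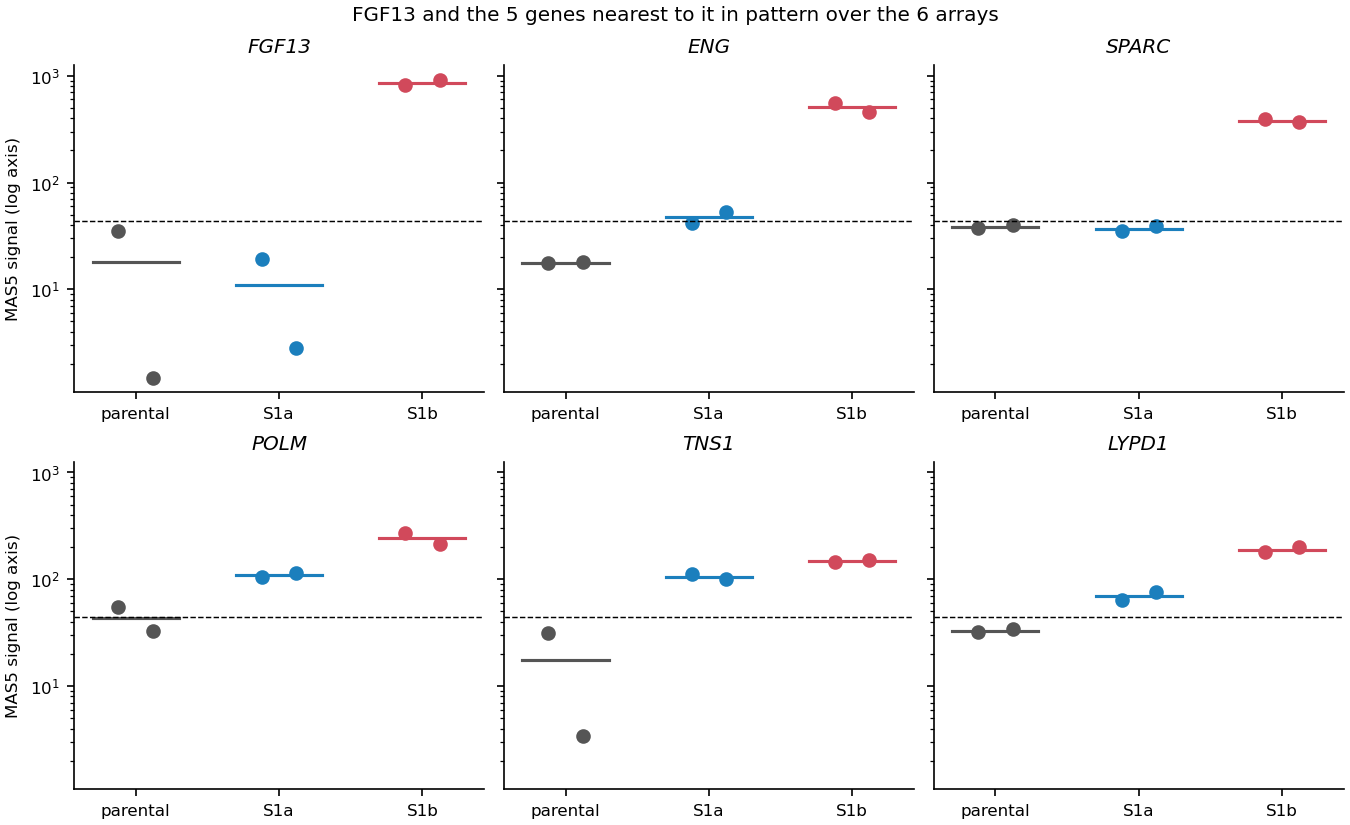
MAS5 signal (log axis, arbitrary units) of FGF13 and the 5 genes nearest to it, on each of the 6 arrays, with population means as lines and 44 units dashed. SPARC is raised in S1b alone (380 units), while ENG, POLM, TNS1 and LYPD1 are above parental in S1a too, with ENG at 47.2 units there and 507 in S1b.

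None of the measured genes next to FGF13 on chromosome X was bright in S1b and dim in the other populations. The 3 nearest genes with a named probe set on each side, chosen by position after the FGF13 values were known, were ARHGEF6, VGLL1 and HTATSF1 on one side and F9, MCF2 and SOX3 on the other. In S1b their brightest probe sets had means of 17, 15.9 and 1610 units and 12.7, 20.7 and 5.65 units. ARHGEF6 fell in the isolates (97.6 units in parental, 21.4 in S1a and 17 in S1b, limma adjusted p = 0.0196), at least 2.22-fold. All its isolate signals lay under 44 units, and its mean over the 6 arrays (45.3) passed the filter only through the parental arrays. HTATSF1 fell as well (2300, 1540 and 1610 units, log2 difference -0.54, limma adjusted p = 0.000253), and neither passed between S1b and S1a (adjusted p = 0.967 and 0.775). MCF2 had both S1b arrays (23 and 18.5 units) above both S1a arrays (18.1 and 1.32), all under 44 units. Around FGF5 on chromosome 4, PRDM8, GK2 and BMP3 had means under 44 units in each population. PRKG2 gave 27.5 and 5.92 units in parental, 9.71 and 2.17 in S1a and 49.2 and 38.8 in S1b. Both its S1b signals lay above the others, at a mean of 44 units. PAQR3 and HNRNPD did not pass against parental (limma adjusted p = 0.173 and 0.421).

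To describe the rest of the pathway, 154 genes in 8 lists were taken by role, of which 123 had a named probe set and 75 were bright enough to be tested. Comparing the isolates' mean with parental, limma called 20 of the 75 higher and 11 lower at an adjusted p under 0.05. Among all 7791 genes tested, 46.2% were called in that comparison, 22.7% higher and 23.5% lower, and the 31 of 75 lie near that background. The median log2 difference was 0.02 for the 75 genes and -0.03 for all genes. Centring each array on its median log2 signal moved the median of all genes from -0.03 to 0.16 and the pathway calls to 30 higher and 7 lower, and among all genes to 2698 higher and 1087 lower, so the balance of directions depends on the scaling. Leaving out probe sets with shared-probe suffixes left 18 calls among 48 genes. Between S1b and S1a, limma called 1 of the 75 genes (DUSP4), beside 1.89% of all genes. That background of 147 genes ran from 22 to 343 as each array was left out and was 4 without the variance trend, and the DUSP4 call (adjusted p = 0.049) ended under 7 of 11 other settings.

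Other FGF genes added little signal. They include FGF14, a further homologous factor, which was dim (mean 5.64 units). Of 17 further FGF genes, 14 had a probe set, and 12 of these were dim on the mean of their brightest probe set. FGF4 and FGF6 were tested, with means of 67.6 and 61.8 units in parental, 72.1 and 48.8 in S1a and 56.3 and 60.1 in S1b, and neither passed (smallest limma adjusted p = 0.701). The highest mean of any of the 18 probe sets was 65.3 units. FGF5, FGF13, FGFR1, FGF1 and FGFR2 were, with FGF4 and FGF6, the measured FGF and receptor genes whose mean reached 44 units.

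Among coreceptors and binding proteins, which present FGFs to their receptors, 3 of 9 tested genes rose and 2 fell. The share called was 55.6%, beside 46.2% of all genes. The heparan sulfate proteoglycan GPC1 (glypican 1) gave 336 and 376 units in parental, 52.2 and 22.9 in S1a and 22.8 and 13.7 in S1b. Both parental signals were above all isolate signals, and the isolates were at least 8.09-fold lower (limma log2 difference -3.63 ± 0.37, adjusted p = 4.44e-05). The isolate means (37.6 units in S1a and 18.2 in S1b) lay under 44 units. The mean of GPC1 over the 6 arrays (137) thus passed the filter only through the parental arrays. With the mean of both GPC1 probe sets the difference was -2.35 and kept its call. The syndecans, transmembrane heparan sulfate carriers, went both ways. SDC1 rose from a mean of 612 to 1050 units in S1a and 847 in S1b (0.63 ± 0.1, adjusted p = 0.000782), and SDC4 from 1220 to 1780 and 1620 units (0.47 ± 0.076, adjusted p = 0.000712, limma). SDC3 fell in the mean of both isolates (-0.88 ± 0.29, limma adjusted p = 0.0289). It passed in S1a alone (-1.34, limma adjusted p = 0.01) but not in S1b (-0.43, limma adjusted p = 0.328). S1b and S1a did not differ past the threshold (limma adjusted p = 0.228). The call on the mean ended with median centring, quantile normalization, no filter or array weights (limma adjusted p from 0.0509 to 0.0696). It also ended without parental replicate 1, S1a replicate 1 or S1b replicate 2. The third riser, GLG1, a Golgi FGF-binding protein, passed at 0.27 (limma adjusted p = 0.0463), and 1 of its other bright probe sets gave the opposite sign. FGFBP1, a secreted carrier of FGFs, was dim (12.6 to 25.1 units in the population means). FGFRL1, a receptor without a kinase domain, and KLB, a coreceptor of endocrine FGFs, had no probe set named to them alone.

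Heparan sulfate enzymes were mostly not past the threshold, with 1 of 12 tested genes higher and 2 lower. The share called was 25%, beside 46.2% of all genes. HS3ST1, a 3-O-sulfotransferase of heparan sulfate, gave 459 and 379 units in parental, 195 and 134 in S1a and 128 and 142 in S1b (log2 difference -1.47 ± 0.18, limma adjusted p = 0.000141). Its parental arrays lay above all isolate arrays. EXT1, a chain polymerase, rose by 0.42 ± 0.082 (limma adjusted p = 0.00217), a call that ended with the mean of its probe sets (0.27, adjusted p = 0.192). HS2ST1, a 2-O-sulfotransferase, had 3 probe sets, of which 1 was bright with the opposite sign to the brightest. In its brightest probe set it fell by 0.31 on the log2 scale (limma adjusted p = 0.0321). That call ended under 8 alternatives, including median centring (adjusted p = 0.406), the replicate block (0.0501) and the fits without parental replicate 1 (0.132), S1a replicate 2 (0.0894) or S1b replicate 1 (0.0857).

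Of 22 tested intracellular signal proteins, 3 rose and 4 fell. The share called was 31.8%, beside 46.2% of all genes. The phosphatase PTPN11 (SHP2), which relays receptor signals to RAS, rose from 4280 and 4110 units to 6140 and 6100 in S1a and 6120 and 6390 in S1b (0.56 ± 0.069, limma adjusted p = 0.000133), although 1 of its 5 probe sets was bright with the opposite sign. The adaptor GRB2 rose by 0.59 (adjusted p = 0.00144, limma). CRKL, another adaptor, rose by 0.5 (limma adjusted p = 0.000821) in its brighter probe set, and by 0.01 in the mean of both probe sets (adjusted p = 0.945). ARAF, a RAF kinase, and RPS6KA3, an ERK-activated kinase, were lower by log2 differences of -0.69 and -0.74 (limma adjusted p = 0.000651 and 0.000382), and SHC1 and RPS6KA1 also passed as lower (-0.42 and -0.78, limma adjusted p = 0.00204 and 0.0158). MAP2K1, MAP2K2 and MAPK3, the ERK kinases and ERK1, did not pass, at -0.13, 0.02 and 0.21 (limma adjusted p = 0.255, 0.914 and 0.387). GRB2, SHC1, RPS6KA1, MAP2K1, MAP2K2 and MAPK3 were named after their values were seen, to complete the list. FRS2, the main adaptor of FGF receptors, had no probe set named to it alone.

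Feedback inhibitors and targets of the ERK branch were the list with the most calls, 9 of 16 tested genes higher and 2 lower, with a median of 0.45, beside 22.7% higher and 23.5% lower among all genes. The list was put together with earlier results of these arrays known, and, as background, its genes respond to many growth factor receptors. The phosphatase DUSP4 gave 1920 and 1830 units in parental, 4880 and 5300 in S1a and 3630 and 4000 in S1b, a rise of 1.23 ± 0.077 (log2, SE, limma adjusted p = 1.87e-06). Its isolates lay above parental on every array, and S1b lay below S1a. The ETS factor ETV4 gave 144 and 154, then 263 and 260, then 337 and 308 units (0.94 ± 0.14, limma adjusted p = 0.000354). SPRY4, a Sprouty inhibitor, gave 430 and 312, then 517 and 689, then 859 and 738 units (0.91 ± 0.16, limma adjusted p = 0.00103). DUSP5, an ERK phosphatase of the nucleus, rose by 0.92 ± 0.086 and SPRED2 by 0.88 ± 0.094 (limma adjusted p = 2.37e-05 and 5.72e-05). With the mean of its 3 probe sets the SPRED2 call ended (0.67, limma adjusted p = 0.0601).

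The better-known FGF targets in the list did not all move. ETV5 rose by 0.44 ± 0.11 (limma adjusted p = 0.0065), and its call ended without parental replicate 2 (0.3, adjusted p = 0.053). SPRY2 and DUSP6, often used as readouts of FGF and ERK signalling, did not pass (-0.12 ± 0.086 and 0.05 ± 0.11, limma adjusted p = 0.295 and 0.741), and both were bright, with parental means of 1180 and 3860 units. The immediate early gene IER3 was lower by a log2 difference of -0.89 (limma adjusted p = 0.000165). ETV1 passed narrowly as lower at -0.28 (limma adjusted p = 0.0305), and in neither isolate alone (0.0559 in S1a and 0.0623 in S1b). With median centring, the mean of probe sets or no variance trend, the list had 1 lower call instead of 2. The remaining risers, named after their values were seen, were SPRY1 (1.08 ± 0.15), FOSL1 (0.45 ± 0.069) and the cyclin CCND1 (0.46 ± 0.085). Without parental replicate 2 the list had 8 higher and 3 lower, and with median centring 10 and 1.

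**Figure D4:**
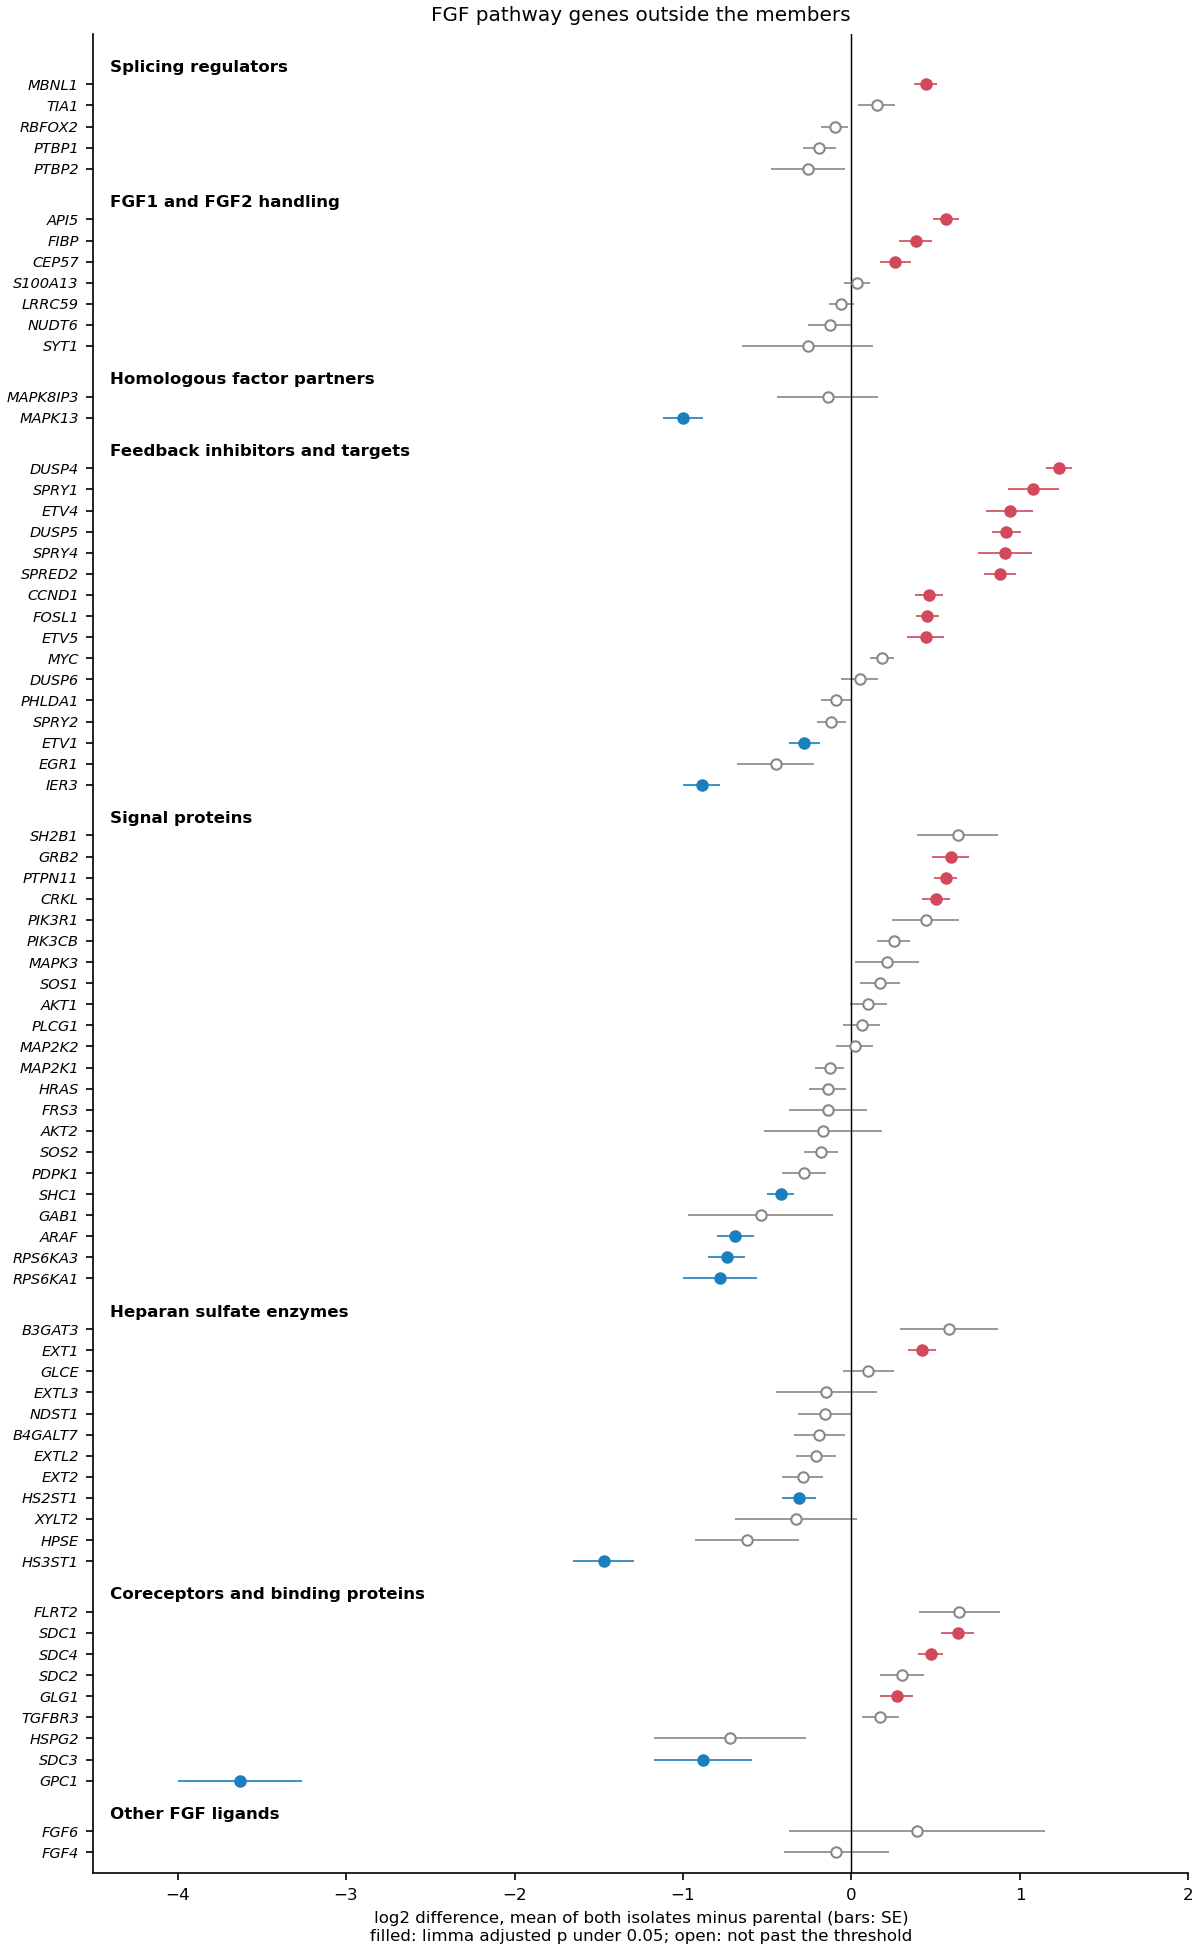
Log2 difference of the mean of both isolates and parental for the 75 tested pathway genes, grouped by list, with bars for the SE; filled points passed the limma threshold (red higher, blue lower) and open points did not. The feedback and target list has 9 filled points above 0, led by DUSP4 (1.23). GPC1 is lowest at -3.63, with both isolate means under 44 units.

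The listed partners of the homologous factors, sodium channel subunits, MAPK8IP scaffolds and MAPK13, were largely dim, including in S1b. Of the 14 with a probe set, 12 had means under 44 units, and no tubulin was among the 14. All 10 sodium channel subunit genes with a probe set (SCN1A, SCN2A, SCN3A, SCN4A, SCN8A, SCN9A, SCN10A, SCN11A, SCN2B and SCN3B) had means under 44 units, the highest being SCN10A at 30.5. The scaffold MAPK8IP2 (islet brain 2), which binds homologous factors, lay at 38.2 units in parental, 41.4 in S1a and 42.2 in S1b. MAPK13, a p38 kinase recruited to that scaffold, fell from 533 and 552 units to 258 and 249 in S1a and 308 and 265 in S1b (log2 difference -1 ± 0.12, limma adjusted p = 0.000105). Its difference between S1b and S1a was 0.17 ± 0.14 (adjusted p = 0.63). MAPK8IP3, the other tested gene of the list, had means of 83 units in parental, 96.2 in S1a and 54.1 in S1b. It did not pass against parental (-0.14 ± 0.3, limma adjusted p = 0.727) or between S1b and S1a (-0.79 ± 0.34, limma adjusted p = 0.319).

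Proteins that handle FGF1 and FGF2 inside the cell gave 3 rises and no fall among 7 tested genes. The share called was 42.9%, near the 46.2% of all genes, so nothing is read from this count. API5, a nuclear partner of FGF2, rose by 0.56 ± 0.078 (limma adjusted p = 0.000269), from 1380 and 1220 units to 1830 and 1820 in S1a and 2040 and 2020 in S1b. FIBP, which binds FGF1, rose by 0.38 ± 0.1 (limma adjusted p = 0.0107), and the call ended without parental replicate 1 (0.19, adjusted p = 0.0804) and without the variance trend (adjusted p = 0.0654). CEP57 rose by 0.26 in its brightest probe set (limma adjusted p = 0.0427), 3 of its other bright probe sets gave the opposite sign, and the mean of its probe sets was -0.01. The CEP57 call also ended with no filter, no variance trend or array weights, and without parental replicate 1, S1a replicate 1, S1a replicate 2 or S1b replicate 2 (adjusted p from 0.0543 to 0.193). S100A13, a release partner of FGF1, did not pass (0.03, adjusted p = 0.739, limma). NUDT6, transcribed from the strand opposite FGF2, was measured at 322 and 279 units in parental and did not pass either (-0.13 ± 0.13, adjusted p = 0.45, limma). Of 5 tested regulators of receptor splicing, 1 was called (20%, beside 46.2% of all genes). This was MBNL1, which rose (0.44 ± 0.07, limma adjusted p = 0.000639), a call that ended with the mean of its probe sets (0.36, adjusted p = 0.221). ESRP1, the epithelial splicing factor that favours the epithelial form of FGFR2, was dim (mean 5.69 units).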

How the data were processed

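Total RNA of the 3 populations was measured on 6 Affymetrix arrays. The deposited values are intensity signals per probe set on a linear scale, which the authors made with MAS5, as the submitters' processing notes state. Its version is not given in the sources used here. Array number limits the precision.

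Control probe sets (62) were dropped. Among the remaining 22215, 19064 had 1 gene symbol, 1043 several and 2108 none, and symbols were updated through RefSeq (GRCh38.p14, 19052 matched). A gene was its probe set of highest mean. Genes with a mean under the 40th percentile were not tested. Signals were analysed as log2(signal + 3.942), the pseudocount being the 10th percentile. limma 3.58.1 in R 4.3.3 fitted 3 group means to all 6 arrays with a variance trend (7 prior and 3 residual degrees of freedom), with Benjamini-Hochberg adjustment over 7791 genes and a threshold of 0.05. The comparison of both isolates with parental was tested on simulated independent arrays, with far fewer genes changed than were called here. The comparison of S1b with S1a was not simulated. Members and lists were chosen with earlier results of these data known. Named were all 9 genes, 11 fixed pathway genes, up to 4 (against parental) and 2 (S1b against S1a) genes of smallest p per list, and the 5 genes nearest to FGF13. Alternatives changed pseudocount, scaling, probe set rule, filter, variance model, replicate block and arrays used.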

Additional observations from a re-analysis of the deposited data

Results flagged for a closer look

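DUSP4 differed between the isolates: its log2 difference of S1b and S1a was -0.42 ± 0.089 (SE, limma adjusted p = 0.049), with both S1b arrays (3630 and 4000 units) below both S1a arrays (4880 and 5300). Both isolates lay above parental, by 1.44 in S1a and 1.02 in S1b on the log2 scale. The call ended under 7 of 11 other settings with all arrays, and without any 1 of the 4 isolate arrays (adjusted p from 0.132 to 0.361).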

How the results depend on the processing

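Of the 75 pathway genes, 31 passed against parental, 27 to 34 as each array was left out, and 18 of 48 without shared-probe suffixes. Between S1b and S1a, 1 passed. None did with a pseudocount of 1, median centring, the mean of probe sets, suffixes left out, no filter, no variance trend or the replicate block (0 each), 2 did with array weights, and 0 to 3 as each array was left out. Over all genes, 3600 passed against parental (3016 to 3295 as each array was left out, 2055 without suffixes) and 147 between the isolates (22 to 343 as each array was left out, 60 with the mean of probe sets, 58 without suffixes, 63 with no filter, 4 without the variance trend, 320 with array weights). With the replicate block, 30 pathway genes and 3350 of all genes passed against parental and 0 and 64 between the isolates. Deviations of same-numbered arrays correlated at -0.0674 to -0.0046 across genes, so no effect shared by same-numbered arrays showed in the signals. Whether such arrays were handled together cannot be told from these values. FGF13 kept its direction throughout. Its difference of both isolates and parental ran from 1.42 to 4.26 as each array was left out, and that of S1b and S1a from 5.09 with a pseudocount of 16 to 6.62 with 1 and from 5.22 to 7 as each array was left out. FGF5 stayed between 1.49 and 1.88. The count of member probe sets apart from parental was 9, and 5 with a pseudocount of 16 (6 to 11 as each array was left out). Between the isolates it was 3, and 1 with that pseudocount (2 to 6 as each array was left out). CEP57 turned to -0.01 with the mean of probe sets. The causes were not tested. Of 1019 further values under alternatives, 956 kept their call or moved within the spread, 40 lost it, 3 gained it, 19 moved and 1 reversed. No detection calls were used, so 44 units stands in for background.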
